A study of Homo sapiens with 16 samples.

Results

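The S100 proteins are small calcium-binding proteins of the EF-hand type, and 10 of their genes were followed here in 2 human melanoma cell lines. The members were chosen by symbol: S100B, S100A1, S100A2, S100A3, S100A4, S100A6, S100A10, S100A11, S100A13 and S100A16, which is 10 of the 60676 gene identifiers in each count table. All 10 passed the filter on low counts, as did 19247 genes in all.

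S100 proteins mostly work as dimers: calcium binding opens a surface by which a dimer docks onto another protein and alters its activity. Inside cells they act on annexins, the cytoskeleton and calcium pumps, and some are released and bind receptors such as RAGE (gene AGER). S100B is a long-used tissue and serum marker of melanocytic tumours, and S100A4, S100A6 and others have been studied in the spread of tumours.

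RNA was sequenced from A101D, which the labels give as methionine dependent, and from MeWo, which the study's design text calls methionine independent, with 8 libraries of each line. All cells grew in a methionine-free DMEM with dialyzed serum and 150 µM cystine, to which either 200 µM methionine or 200 µM homocysteine was added. The labels do not tie a medium to a library, so media were not compared. Libraries are described by line and by replicate number, as replicates 1 to 4 and replicates 5 to 8, and the labels do not say how those sets of numbers differ or whether libraries came from separate cultures. P-values therefore measure only the spread between these libraries.

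Total counts were 28910881 to 38961862 per library in A101D and 31217443 to 38722489 in MeWo. In A101D the 2 sets of replicates stood apart: a chi-square statistic of counts over genes, divided by its degrees of freedom, had a median of 100.7 between libraries of different sets and 4.03 within a set. In MeWo those medians were 10.8 and 2.95. No pair of libraries was as alike as sampling alone would give, the lowest value being 1.86. Of 10 melanocyte lineage markers, 8 averaged over 1 CPM (counts per 1000000, on scaled library sizes) in A101D replicates 1 to 4, 9 in A101D replicates 5 to 8, and 10 in MeWo. SOX10, a defining factor of that lineage, averaged 388 and 369 CPM in the A101D sets and 460.3 and 457 CPM in the MeWo sets.

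All members but S100B lie on the long arm of chromosome 1. In GRCh38 with GENCODE v29 they are S100A10 (ENSG00000197747, chr1:151982915-151994390), S100A11 (ENSG00000163191, chr1:152032506-152047907), S100A6 (ENSG00000197956, chr1:153534599-153536244), S100A4 (ENSG00000196154, chr1:153543613-153550136), S100A3 (ENSG00000188015, chr1:153547329-153549372), S100A2 (ENSG00000196754, chr1:153561108-153567890), S100A16 (ENSG00000188643, chr1:153606886-153613145), S100A13 (ENSG00000189171, chr1:153618787-153631360) and S100A1 (ENSG00000160678, chr1:153627926-153632039). S100B (ENSG00000160307, chr21:46598962-46605208) lies on chromosome 21. S100A1 is on the plus strand and the other 9 are on the minus strand. S100A3 lies inside the span of S100A4 but shares no exon base with it. The exons of S100A1 and S100A13 overlap on opposite strands over 235 bases, which is 7.76% of the S100A1 exons and 10.6% of the S100A13 exons. The kit marked strand, but the strand setting of the counting is not given in the sources used here, so reads in that overlap could belong to either gene.

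RefSeq promoter windows (GRCh38.p14, 250 bases before to 50 bases after a start) were found for 9 members, 13 windows in all. Windows are printed for 4 of the members with large differences between sets or lines, S100A1 not among them, and for S100A6, the most abundant member. All 5 are read on the minus strand, 5′ to 3′. Capitals mark 3 motifs that were chosen after the sequences were seen and searched on both strands: TGANTCA, the core of the AP-1 site, the TATA box core TATAAA, and GGGCGG, the core of the GC box.
S100A2, first start, chr1:153565795-153566094: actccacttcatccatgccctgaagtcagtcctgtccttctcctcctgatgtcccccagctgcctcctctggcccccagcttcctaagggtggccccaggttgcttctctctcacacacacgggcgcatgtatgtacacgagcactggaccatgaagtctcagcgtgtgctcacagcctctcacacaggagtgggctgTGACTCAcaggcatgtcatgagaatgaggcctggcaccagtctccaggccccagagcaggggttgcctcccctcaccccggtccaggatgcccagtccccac
S100A3, chr1:153549209-153549508: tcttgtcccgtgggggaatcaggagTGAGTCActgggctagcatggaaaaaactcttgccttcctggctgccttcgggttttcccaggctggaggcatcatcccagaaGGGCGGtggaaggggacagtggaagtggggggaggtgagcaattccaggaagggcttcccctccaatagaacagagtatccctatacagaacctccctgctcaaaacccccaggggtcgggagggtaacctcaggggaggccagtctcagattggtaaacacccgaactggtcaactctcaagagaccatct
S100A4, chr1:153545757-153546056: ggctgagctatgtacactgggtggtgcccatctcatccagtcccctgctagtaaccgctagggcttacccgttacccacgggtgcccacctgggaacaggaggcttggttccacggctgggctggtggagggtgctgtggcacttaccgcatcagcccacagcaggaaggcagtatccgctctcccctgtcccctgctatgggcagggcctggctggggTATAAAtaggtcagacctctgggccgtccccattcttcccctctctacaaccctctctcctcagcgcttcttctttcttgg
S100A16, second start, chr1:153609306-153609605: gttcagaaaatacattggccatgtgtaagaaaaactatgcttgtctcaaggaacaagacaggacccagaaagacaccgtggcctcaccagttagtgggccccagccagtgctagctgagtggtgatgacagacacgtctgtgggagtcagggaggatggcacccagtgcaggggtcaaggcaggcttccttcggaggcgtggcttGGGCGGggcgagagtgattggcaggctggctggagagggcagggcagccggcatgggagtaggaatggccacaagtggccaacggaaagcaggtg
S100A6, chr1:153535942-153536241: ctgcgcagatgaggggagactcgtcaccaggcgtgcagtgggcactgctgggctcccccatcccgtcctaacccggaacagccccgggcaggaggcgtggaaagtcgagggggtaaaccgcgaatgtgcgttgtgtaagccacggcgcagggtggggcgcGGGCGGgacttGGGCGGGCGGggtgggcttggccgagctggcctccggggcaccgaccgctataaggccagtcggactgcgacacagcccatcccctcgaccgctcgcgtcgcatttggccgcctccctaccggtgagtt

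TGANTCA occurred in 2 of the 13 windows, 52 bases before the first start of S100A2 and 225 bases before the start of S100A3, and in 7.71% of all 35116 RefSeq promoter windows of this length. TATAAA occurred in 2 of them, 31 bases before the start of S100A4 and 29 bases before the second start of S100A13, against 11.5% of all windows. GGGCGG occurred in 6 of them, against 45.0% of all windows, and the window of S100A6 held it at 90, 79 and 75 bases before its start, the last 2 overlapping. None of these motifs occurred in the window of S100A1, the first of S100A16, the second of S100A2 or the third of S100A13, which are not printed. The windows also differed in CpG dinucleotides. S100A6, S100A10 and S100A11 had 31, 32 and 22 CpG in 300 bases, where the median over all promoters was 14. The windows of S100A1, S100A2, S100A3, S100A4 and S100A16 had between 3 and 8, and those of S100A13 had 19, 11 and 12. A match describes these letters and is not a shown binding site.

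S100A6 was the most abundant member in both lines, whether levels were taken in CPM or in CPM per kb of exon. On the per-kb scale, which allows genes of different length to be compared, the A101D means were 1514 for S100A6, 421 for S100B, 215 for S100A11 and 212 for S100A4. They were followed by 65.6 for S100A10, 38.9 for S100A3, 33.8 for S100A13, 17.6 for S100A16, 15.9 for S100A1 and 6.79 for S100A2. Over the 8 A101D libraries the ranges of S100A11 and S100A4 overlapped, as did those of S100A3 and S100A13 and those of S100A16 and S100A1. In MeWo the order was another one. S100A6, at 1365 CPM per kb, was followed by S100A11 at 247, S100A16 at 111, S100B at 90.8 and S100A10 at 82.0. The lowest levels were 18.8 for S100A13, 3.80 for S100A4, 2.65 for S100A2, 1.30 for S100A1 and 0.423 for S100A3. In MeWo the ranges of S100B and S100A10 overlapped, and so did those of S100A4 and S100A2.

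Summed over the 10 members, A101D libraries held 2579 to 2983 CPM, above all MeWo libraries at 1879 to 2120 CPM. S100A6 alone made up 48.0% to 58.7% of that sum in A101D and 65.1% to 67.7% in MeWo. Within A101D its share lay between 48.0% and 48.7% for replicates 1 to 4, and between 58.0% and 58.7% for replicates 5 to 8.

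**Figure D1:**
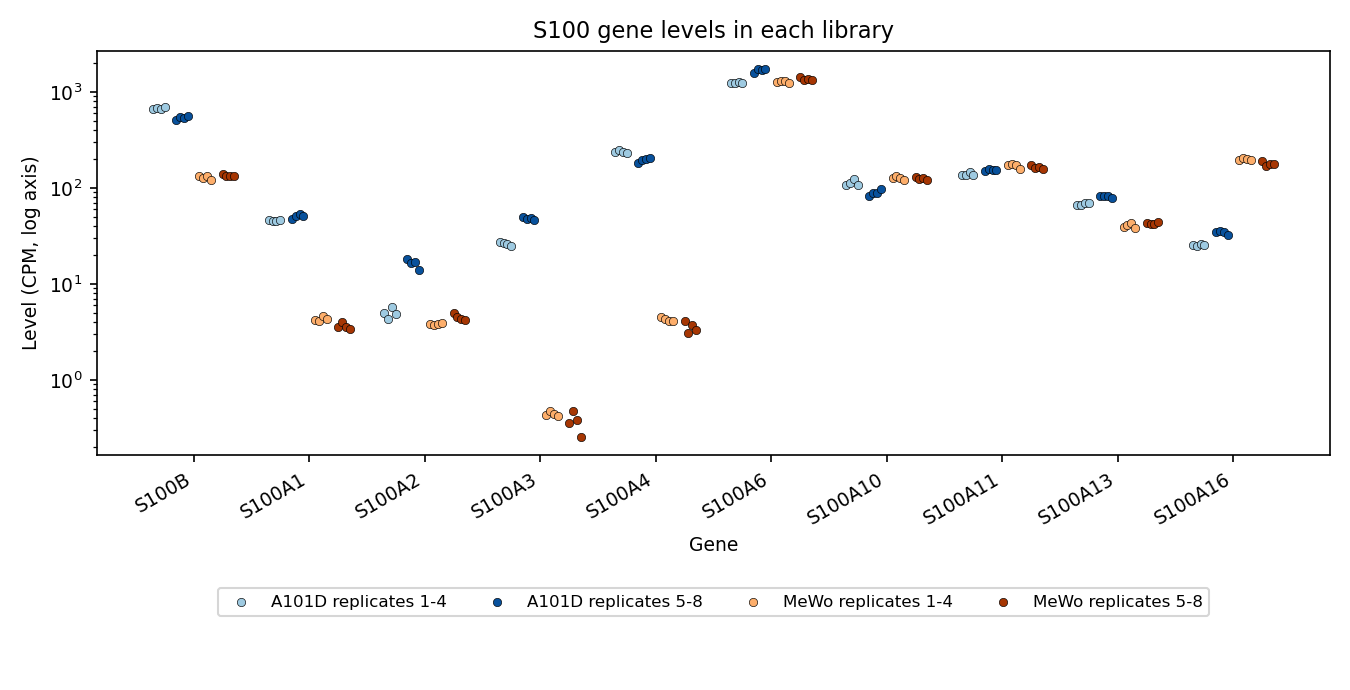
Level of each S100 gene in every library (y axis, CPM, log axis), with the 4 libraries of each line and replicate set side by side. S100A3 and S100A4 lie far lower in all MeWo libraries than in all A101D libraries, S100A16 lies higher, and S100A6 runs from 1229 to 1734 CPM over both lines.

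In the comparison of the lines, 6 members were lower in MeWo (S100B, S100A1, S100A2, S100A3, S100A4 and S100A13), 3 were higher (S100A10, S100A11 and S100A16), and S100A6 did not pass the threshold. Of all 19247 genes tested 79.0% were called, 40.4% lower and 38.6% higher in MeWo, so a call as such sets the family little apart from other genes. For 7 members no A101D library overlapped the MeWo range, against 57.7% of all genes. Of the 10, 6 were called and differed by more than 2-fold, against 36.5% of all genes. The median log2 fold change (MeWo minus A101D, limma with voom weights) was -0.98 over the members and -0.022 over all genes. Values printed with ± and an adjusted p are log2 fold changes with their standard errors unless another unit is named. Since the A101D sets stood apart, the lines were also compared within replicates 1 to 4, where 9 members were called and 81.5% of all genes, and within replicates 5 to 8, where 10 members were called and 85.3% of all genes. In bulk RNA, a lower level because fewer cells express a gene and one because each cell holds less of its RNA cannot be told apart.

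**Figure D2:**
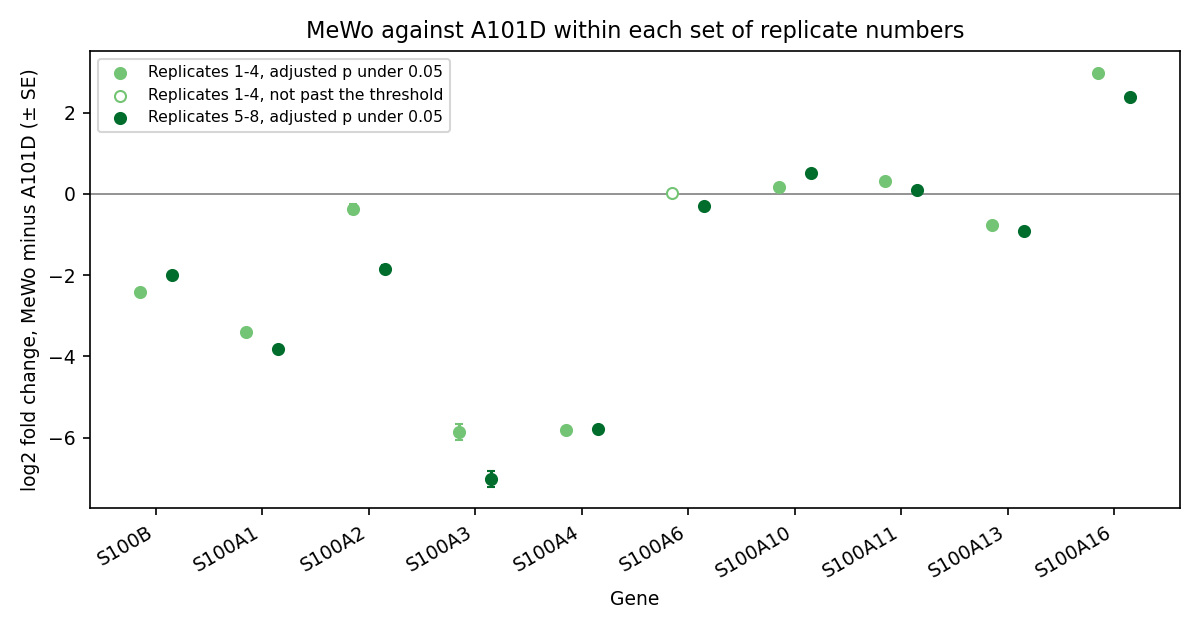
Log2 fold change of MeWo against A101D with its standard error (y axis) for each S100 gene (x axis), within replicates 1 to 4 and within replicates 5 to 8; open points did not pass the threshold. S100A3 (-5.85 and -7.02) and S100A2 (-0.37 and -1.86) show the widest gaps between the sets, and S100A4 (-5.81 and -5.79) the narrowest.

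S100B, which binds RAGE and is the member used in melanoma diagnosis, was lower in MeWo. In A101D it had 673, 681, 673 and 697 CPM in replicates 1 to 4 and 506, 543, 541 and 568 CPM in replicates 5 to 8. In MeWo it had 132, 127, 132 and 122 CPM and 139, 134, 134 and 132 CPM. Every A101D library was above every MeWo library, and within A101D the first set was above the second with no overlap, while the MeWo sets overlapped. Over all libraries S100B was 4.61-fold lower in MeWo (log2 fold change -2.21 ± 0.067, adjusted p = 3.72e-15). Within replicates 1 to 4 the fold was 5.31 and within replicates 5 to 8 it was 4.01. From the first to the second set S100B fell in A101D (log2 fold change -0.34 ± 0.031, adjusted p = 3.66e-12), and in MeWo its value was 0.068 ± 0.037, adjusted p = 0.228.

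S100A4, known for its part in cell motility and metastasis through nonmuscle myosin, and S100A3, a member studied mainly in the hair cuticle, showed the widest line differences. S100A4 had 237, 246, 239 and 234 CPM in A101D replicates 1 to 4 and 184, 196, 199 and 206 CPM in replicates 5 to 8. In MeWo it had 4.48, 4.26, 4.06 and 4.13 CPM and 4.12, 3.05, 3.77 and 3.32 CPM. It was abundant in all A101D libraries and scarce in all MeWo libraries, and was 55.9-fold lower in MeWo (log2 fold change -5.80 ± 0.10, adjusted p = 2.6e-18). In A101D it fell from the first set to the second (-0.28 ± 0.034, adjusted p = 1.69e-09) with no overlap, whereas in MeWo the sets overlapped and the value was -0.27 ± 0.12, adjusted p = 0.124. That MeWo value passed the threshold when MeWo replicate 5 was left out (-0.35, adjusted p = 0.0459). S100A3 had 27.3, 26.8, 26.3 and 24.9 CPM in A101D replicates 1 to 4 and 49.5, 47.5, 48.3 and 46.7 CPM in replicates 5 to 8. Its second set was higher than its first in every library of A101D, by 1.82-fold (0.87 ± 0.043, adjusted p = 6.35e-20). In MeWo S100A3 had 0.428, 0.473, 0.444 and 0.419 CPM and 0.354, 0.476, 0.383 and 0.256 CPM, from 10 to 17 counts per library and 109 counts in all. It was 87.0-fold lower in MeWo over all libraries (-6.44 ± 0.40, adjusted p = 6.79e-11), and a difference between its MeWo sets was not detectable at such counts (-0.30 ± 0.28, adjusted p = 0.54).

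S100A2, a member best known from epithelia, moved most between the A101D sets. It had 4.94, 4.31, 5.77 and 4.90 CPM in replicates 1 to 4 and 18.2, 16.4, 16.7 and 13.9 CPM in replicates 5 to 8, so each library of the second set held more than the highest of the first. In MeWo it had 3.80, 3.69, 3.81 and 3.95 CPM and 4.93, 4.48, 4.30 and 4.22 CPM, also without overlap but close together. In A101D it rose 3.27-fold (1.71 ± 0.092, adjusted p = 6.25e-19), and in MeWo the value of 0.22 ± 0.12, adjusted p = 0.225 did not pass the threshold. Its line difference followed the set of A101D libraries used: -0.37 ± 0.12, adjusted p = 0.005 within replicates 1 to 4 and -1.86 ± 0.093, adjusted p = 1.95e-20 within replicates 5 to 8. Over all libraries it was 2.18-fold lower in MeWo (-1.13 ± 0.34, adjusted p = 0.0062), and the libraries of the lines overlapped.

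S100A16, a widely expressed member, was the only one of the 10 more than 2-fold higher in MeWo. It had 25.6, 25.1, 25.9 and 25.3 CPM in A101D replicates 1 to 4 and 34.8, 35.6, 34.9 and 32.1 CPM in replicates 5 to 8. In MeWo it had 197, 204, 199 and 196 CPM and 189.6, 169, 179 and 177 CPM. All MeWo libraries lay far above all A101D libraries, by 6.36-fold (2.67 ± 0.082, adjusted p = 3.96e-15). The sets moved in opposite directions in the lines: the second was higher in A101D (0.43 ± 0.049, adjusted p = 5.55e-10) and lower in MeWo (-0.16 ± 0.034, adjusted p = 0.000977), with no overlap in either.

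S100A6, also called calcyclin, had overlapping levels in the lines in replicates 1 to 4. Its A101D values were 1255, 1245, 1269 and 1246 CPM and its MeWo values 1269.6, 1304, 1304 and 1229 CPM, which overlapped (0.025 ± 0.029, adjusted p = 0.419). In replicates 5 to 8 it had 1595, 1732, 1680.0 and 1734 CPM in A101D and 1433, 1347, 1369 and 1348 CPM in MeWo, and every MeWo library was lower (-0.30 ± 0.028, adjusted p = 4.62e-12). It rose from the first set to the second in A101D (0.43 ± 0.029, adjusted p = 4.69e-16). In MeWo the rise was 0.11 ± 0.029, adjusted p = 0.00916, and it missed the threshold without any 1 of A101D replicates 3, 4, 6 and 7 or MeWo replicates 3, 5, 7 and 8, with adjusted p between 0.051 and 0.159. Over all libraries the line value was -0.13 ± 0.081, adjusted p = 0.137, with A101D at 1469.7 ± 235 CPM and MeWo at 1325 ± 62.9 CPM (SD, n = 8). With the replicate set as a term in the model it passed (adjusted p = 0.0133).

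S100A10 and S100A11 are partners of annexins: S100A10, which has lost calcium binding, forms a complex with annexin A2, and S100A11 binds annexin A1. S100A10 had 108, 113, 124 and 108 CPM in A101D replicates 1 to 4, 82.4, 89.3, 88.0 and 97.0 CPM in replicates 5 to 8, and 121 to 132 CPM over the 8 MeWo libraries. It was 1.26-fold higher in MeWo (0.34 ± 0.071, adjusted p = 0.000359), with overlap in the first set only, and it fell between the A101D sets (-0.34 ± 0.044, adjusted p = 1.13e-08). S100A11 had 135, 137, 145 and 137 CPM in A101D replicates 1 to 4, 149, 158, 154 and 154 CPM in replicates 5 to 8, and 159 to 178 CPM in MeWo. Its line difference was the smallest that passed, 1.15-fold (0.20 ± 0.042, adjusted p = 0.000335), and the lines did not overlap. Within replicates 5 to 8 the S100A11 value was 0.094 ± 0.035, adjusted p = 0.0137. It missed the threshold there without any 1 of A101D replicates 4, 5, 7 and 8 or MeWo replicate 5, with adjusted p between 0.0514 and 0.0975. In A101D S100A11 rose slightly (0.15 ± 0.036, adjusted p = 0.000272), a call that was lost without the low-count filter (adjusted p = 0.115).

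S100A1, a regulator of calcium pumps and channels in muscle, and S100A13, which takes part in the export of FGF1 and interleukin 1 alpha, were both lower in MeWo. S100A1 had 46.3, 44.9, 44.8 and 46.4 CPM and 47.9, 51.6, 53.4 and 50.9 CPM in the A101D sets, and 4.2, 4.10, 4.57 and 4.27 CPM and 3.51, 4.00, 3.53 and 3.40 CPM in the MeWo sets. The sets did not overlap in either line; the second was the higher in A101D (0.16 ± 0.039, adjusted p = 0.000547) and the lower in MeWo (-0.25 ± 0.11, adjusted p = 0.115, not past the threshold). The A101D call was lost without the low-count filter (adjusted p = 0.119). Over all libraries S100A1 was 12.3-fold lower in MeWo (-3.62 ± 0.072, adjusted p = 1.01e-17). S100A13 had 66.8 to 70.5 CPM and 79.5 to 82.1 CPM in the A101D sets and 38.6 to 43.9 CPM in MeWo. It was 1.79-fold lower in MeWo (-0.84 ± 0.056, adjusted p = 2.16e-10) and rose between the A101D sets (0.25 ± 0.037, adjusted p = 2.03e-07). Of the S100A13 exon bases, 24.2% are also shared with AL162258.1, a transcript on the same strand.

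Between the replicate sets all 10 members changed in A101D, 7 upward (S100A1, S100A2, S100A3, S100A6, S100A11, S100A13 and S100A16) and 3 downward (S100B, S100A4 and S100A10). In this comparison 68.0% of all genes tested were called, 33.6% upward and 34.4% downward (7610 genes upward and 5584 downward when scaled by total counts), and the sets did not overlap for all 10 members against 62.3% of all genes. The changes were mostly small: the median absolute log2 fold change was 0.34 over the members and 0.39 over all genes, and S100A2 alone passed 2-fold, as did 13.8% of all genes. In MeWo 2 members changed, S100A6 upward and S100A16 downward, beside 15.6% of all genes, 7.28% upward and 8.32% downward. The MeWo sets did not overlap for those 2 and for S100A1 and S100A2, that is 4 of 10 members, against 18.2% of all genes. Over all genes 1401 were higher and 1601 lower in the second MeWo set. That split was 2077 to 1038 when libraries were scaled by total counts only and 1079 to 1988 with median-of-ratios factors. With total counts S100A10 in MeWo, which was not called, changed sign, and S100B passed the threshold (0.10, adjusted p = 0.0372).

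**Figure D3:**
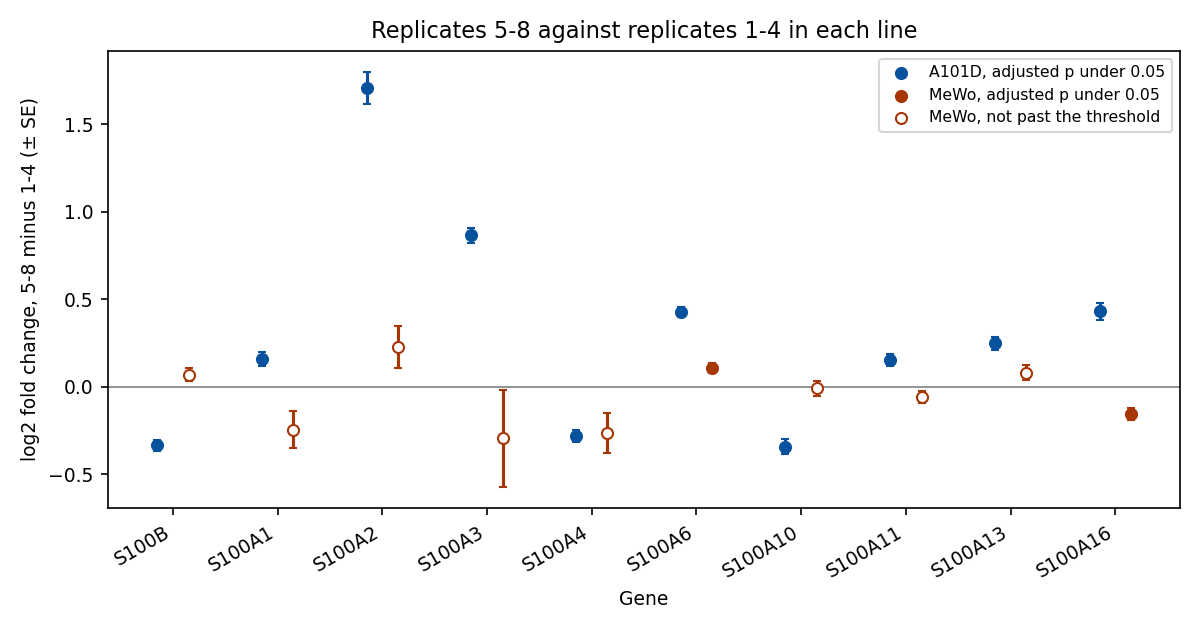
Log2 fold change of replicates 5 to 8 against replicates 1 to 4 with its standard error (y axis) for each S100 gene (x axis) in each line; open points did not pass the threshold. S100A2 (1.71) and S100A3 (0.87) stand highest in A101D, and in MeWo all 10 values lie between -0.30 and 0.22.

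The difference between the lines in this change was tested itself, as an interaction. It passed for 9 members, beside 52.7% of all genes, 28.3% with a more positive change in MeWo and 24.5% with a more negative one. That split, 5442 to 4710 genes, turned to 4812 to 5331 with total counts, 4958 to 5111 with median-of-ratios factors and 4899 to 5277 with upper-quartile ones. The change was more positive in MeWo for S100B (0.40 ± 0.048, adjusted p = 3.98e-09) and S100A10 (0.33 ± 0.061, adjusted p = 1.53e-05) and more negative for 7 others. Among the 7, S100A2 differed most (-1.48 ± 0.15, adjusted p = 1.05e-10), followed by S100A3 (-1.16 ± 0.28, adjusted p = 0.000636) and S100A16 (-0.59 ± 0.059, adjusted p = 7.28e-11). For S100A4 the change was -0.28 in A101D and -0.27 in MeWo, the latter not called, and the difference was 0.019 ± 0.12, adjusted p = 0.914. Its sign, not called, turned under other scalings. S100A13 had the smallest difference that passed (-0.17 ± 0.056, adjusted p = 0.0109), and it did not pass without the low-count filter (adjusted p = 0.176). These comparisons share libraries with those of the lines and are not separate evidence.

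Of 11 other S100 genes listed, 2 passed the low-count filter, S100A5 and S100P. S100A5, the neighbour of S100A6, had 1.02, 0.999, 0.926 and 0.832 CPM in A101D replicates 1 to 4 and 4.46, 3.47, 4.56 and 3.23 CPM in replicates 5 to 8. In MeWo it had 19 counts over 8 libraries, 0 to 4 in each. It rose between the A101D sets (2.02 ± 0.20, adjusted p = 1.32e-11) with no overlap. It passed the low-count filter through the A101D libraries alone, so its difference between the lines was not read as a test. S100P, a member known from placenta and carcinomas, had 0.627, 0.874, 0.570 and 0.535 CPM and 4.55, 4.32, 4.41 and 4.66 CPM in the A101D sets, and 0.628, 0.662, 0.508 and 0.508 CPM and 0.290, 0.364, 0.5 and 0.512 CPM in the MeWo sets. It rose 6.87-fold between the A101D sets (2.78 ± 0.18, adjusted p = 1.99e-16), a larger value than that of any of the 10 members. Between the lines it was lower in MeWo over all libraries (-1.81 ± 0.62, adjusted p = 0.0134) and within replicates 5 to 8 (-3.40 ± 0.21, adjusted p = 7.8e-18). The first A101D set overlapped the MeWo libraries of the same numbers (-0.16 ± 0.24, adjusted p = 0.555). S100A14 was not tested, since its counts were too few in 12 libraries. It averaged 0.133 CPM and 2.55 CPM in the A101D sets, from 18 and 358 counts, and had 22 counts in MeWo. These values are given without a test, since only the second A101D set reached the filter's level. S100A8 and S100A12 had no count, and the 6 others had 1 to 13 counts over all libraries.

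The proteins that S100 proteins bind were taken from a list of 22 genes, all of them tested. In the line comparison 11 were higher and 9 lower in MeWo, beside 79.0% of all genes called. Between the A101D sets 11 rose and 10 fell, beside 68.0%, and between the MeWo sets 1 rose and 4 fell, beside 15.6%. The listed genes are named by role, with within-set values where these differ in call or sign from the value over all libraries. Their median log2 fold change between the lines was 0.31, and their median absolute value was 0.58 against 0.71 over all genes.

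Among the receptors, AGER, which encodes RAGE, was near 3.01 CPM in A101D and 3.40 CPM in MeWo and was not called (0.17 ± 0.10, adjusted p = 0.134), though it passed within replicates 5 to 8 (0.31 ± 0.13, adjusted p = 0.0284). TLR4, a receptor of innate immunity, was lower in MeWo (-2.85 ± 0.30, adjusted p = 1.3e-07). BSG averaged 547 CPM in A101D and 698 CPM in MeWo and was higher in MeWo without overlap (0.35 ± 0.051, adjusted p = 5.39e-06). Among the annexins, ANXA2, the partner of S100A10, averaged 1489 CPM in A101D and 1968 CPM in MeWo and was higher there (0.41 ± 0.049, adjusted p = 6.48e-07), as S100A10 was. Both fell between the A101D sets, ANXA2 by 0.18 on the log2 scale and with overlapping libraries. ANXA5 (1.17 ± 0.083, adjusted p = 4.94e-10), ANXA6 (0.97 ± 0.17, adjusted p = 6.03e-05) and ANXA11 (0.38 ± 0.067, adjusted p = 6.38e-05) were also higher in MeWo. These also fell between the A101D sets, with log2 fold changes of -0.43, -0.97 and -0.35. AHNAK, a scaffold that binds the complex of S100A10 and annexin A2, was lower in MeWo (-0.43 ± 0.053, adjusted p = 9.65e-07). ANXA1, the partner of S100A11, was lower in MeWo (-0.67 ± 0.14, adjusted p = 0.000332) and rose between the A101D sets (0.79 ± 0.034, adjusted p = 1.25e-21).

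CACYBP and SUGT1, which bind S100A6, were higher in MeWo (0.72 ± 0.18, adjusted p = 0.00122 and 0.72 ± 0.078, adjusted p = 1.61e-07), and CACYBP fell between the A101D sets (-1.0 ± 0.044, adjusted p = 2.46e-21) where S100A6 rose. MYH9, the heavy chain of nonmuscle myosin that S100A4 binds, was lower in MeWo (-0.62 ± 0.045, adjusted p = 7.3e-10). Between the A101D sets MYH9 rose (0.18 ± 0.031, adjusted p = 6.42e-06), where S100A4 fell. MDM2, a ubiquitin ligase that S100 proteins also bind, was lower in MeWo (-2.68 ± 0.095, adjusted p = 2.89e-14). The genes exported with the help of S100A13 were lower in MeWo, FGF1 by 6.83-fold (-2.77 ± 0.28, adjusted p = 6.34e-08) and IL1A by 38.0-fold (-5.25 ± 0.81, adjusted p = 1.32e-05). Per MeWo library these folds rest on 9 to 37 counts of FGF1 and 10 to 21 counts of IL1A, which limits both. FGF1 and IL1A rose between the A101D sets (0.81 ± 0.12, adjusted p = 1.97e-07 and 2.17 ± 0.068, adjusted p = 4.23e-26), as S100A13 did. Between the MeWo sets FGF1 fell (-0.97 ± 0.28, adjusted p = 0.0125) at those low counts. There IL1A (-0.072 ± 0.29, adjusted p = 0.918) and S100A13 (0.081 ± 0.042, adjusted p = 0.206) were not called. SYT1, a member of the same export complex, was not called between the lines (0.35 ± 0.39, adjusted p = 0.411), and its values had opposite signs in the sets, 1.39 ± 0.17, adjusted p = 3.81e-09 within replicates 1 to 4 and -0.64 ± 0.11, adjusted p = 3.28e-06 within replicates 5 to 8. It rose between the A101D sets (2.22 ± 0.16, adjusted p = 6.64e-15). ATP2A2, the calcium pump that S100A1 binds, was lower in MeWo (-0.36 ± 0.11, adjusted p = 0.00868), with overlapping libraries. Between the A101D sets ATP2A2 fell (-0.61 ± 0.030, adjusted p = 6.5e-20), where S100A1 rose.

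Along chromosome 1, neighbouring members differed between the lines in size and direction. S100A6, which was not called, is followed by S100A5, which was nearly without counts in MeWo, and then by S100A4 and S100A3, 56- and 87-fold lower in MeWo. S100A16, higher in MeWo, lies between S100A2 and S100A13, both lower. Of 62 protein-coding genes outside the family within the 1649 kb that the chromosome 1 members span and 250 kb on either side, 16 passed the low-count filter. In the line comparison 4 of these were higher and 8 lower in MeWo, a share near the background of 79.0% of all genes called. CHTOP, the next gene beyond S100A1 at a distance of 1.94 kb, was higher in MeWo (log2 fold change 0.59 ± 0.10, adjusted p = 4.9e-05), and SNAPIN, farther on, was not called over all libraries (0.081 ± 0.099, adjusted p = 0.457) but was 0.31 within replicates 1 to 4 (adjusted p = 1.32e-06) and -0.14 within replicates 5 to 8 (adjusted p = 0.00613). ILF2, next after SNAPIN, was higher in MeWo (0.49 ± 0.11, adjusted p = 0.000829), as was SLC27A3 farther on (4.31 ± 0.14). On the other side of S100A6, SPRR2D was the nearest tested gene, at 493 kb from it, and averaged 6.60 CPM in A101D and 0.0144 CPM in MeWo. It passed the low-count filter through A101D alone.

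**Figure D4:**
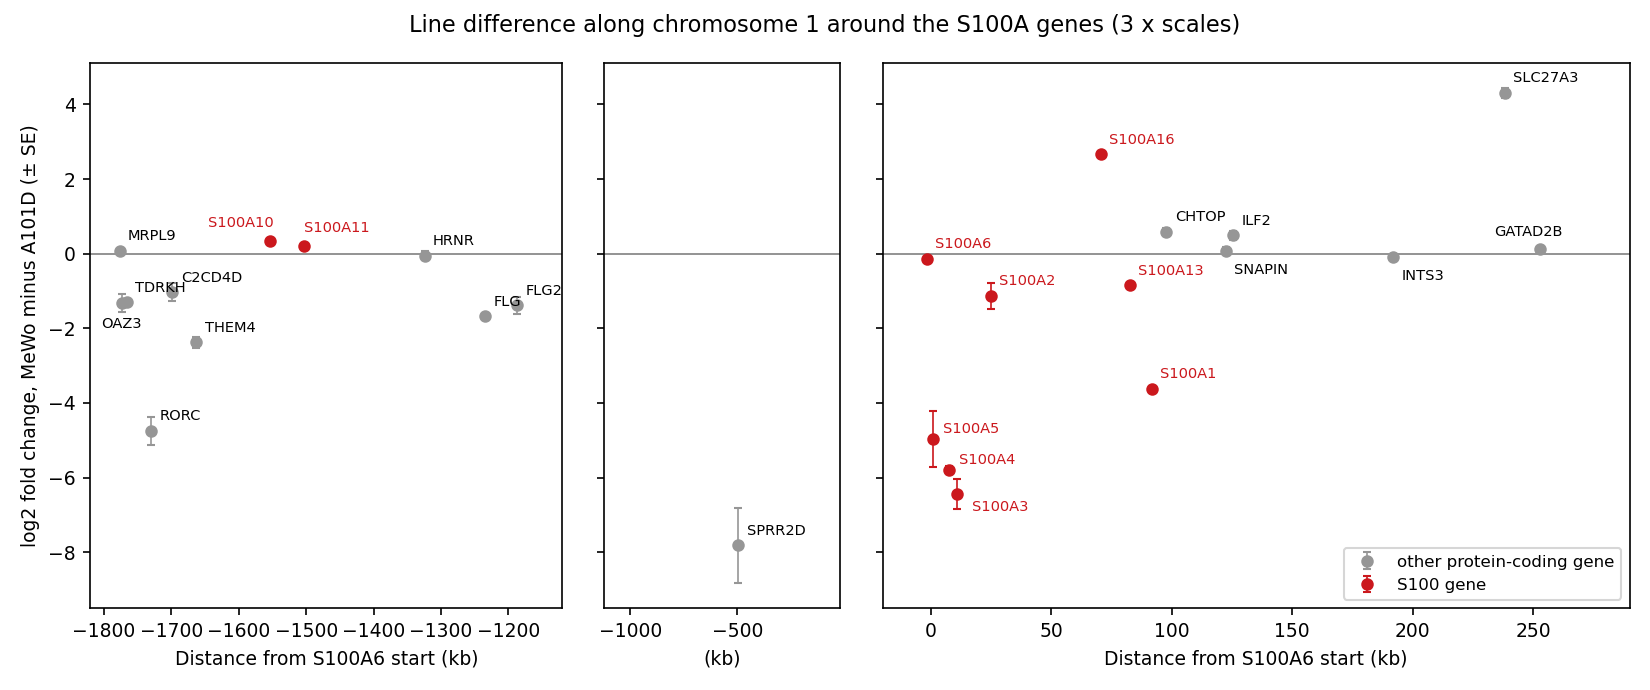
Log2 fold change of MeWo against A101D with its standard error (y axis) for the tested protein-coding genes around the chromosome 1 members, against the distance in kb of each gene's lower end from the start of S100A6 (x axis, 3 panels with different scales). S100 genes are red, and S100A5 and SPRR2D were tested through their A101D counts alone. S100A16 at 2.67 is the highest S100 gene, and SLC27A3, outside the family, is the highest point at 4.31. S100A4 and S100A3 at -5.80 and -6.44 lie far below S100A6 at -0.13.

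For each member the gene with the most similar pattern over the 16 libraries was sought among 10123 genes with a mean of at least 10 CPM. Likeness was the root mean square difference of log2(CPM + 0.5) values after each gene's mean was removed. For S100B it was PLAT, the tissue plasminogen activator, at 0.058, and for S100A2 it was PHLDA1 at 0.12. PHLDA1 had 582 and 1816 CPM in the A101D sets and 475 and 596 CPM in the MeWo sets. S100A4 was nearest to C1S, a complement protease, at 0.15, and S100A3 to the gene of carboxypeptidase M at 0.11. S100A1 was nearest to GPC4 at 0.14, S100A16 to MOCOS at 0.089 and S100A13 to TIAM1 at 0.048. S100A6, S100A10 and S100A11 were nearest to TMEM177 at 0.042, CFAP20 at 0.050 and SZRD1 at 0.047. A low value is easier to reach for a gene that varies little: S100A11 itself departed from its own mean by 0.12 and S100A4 by 2.82 on the same scale.

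Markers of other cell types were measured beside the members. The 10 melanocyte genes summed to between 2113 and 2920 CPM for A101D and between 10258 and 11473 CPM for MeWo, while S100B was the higher in A101D. Of these genes 8 were higher and 2 lower in MeWo, beside 79.0% of all genes called. In A101D the sum was mostly DCT, at 1650 and 1343 CPM in the sets against 486 and 522 CPM in MeWo. In MeWo it was mostly PMEL, at 6566 and 6719 CPM, and TYRP1, at 2243 and 2481 CPM. Of 4 Schwann cell genes, which belong to another lineage that expresses S100B, the sum lay between 689 and 1027 CPM for A101D and between 497 and 554 CPM for MeWo. The 6 fibroblast genes summed to between 584 and 1032 CPM for A101D, and for MeWo to between 76.2 and 86.0 CPM. In A101D this was almost all COL1A2, at 956 and 601 CPM in the sets, while COL3A1, COL1A1 and DCN averaged below 1 CPM. In MeWo it was mostly LUM, at 72.3 and 75.5 CPM against 1.30 and 2.10 CPM in the A101D sets, and 4 of the 6 genes were higher in MeWo. The 5 endothelial genes summed to between 108 and 158 CPM for A101D, mostly KDR, and 2.99 to 3.43 CPM in MeWo. PECAM1 averaged 0.20 and 0.51 CPM in the A101D sets. VWF went from 3.70 to 15.96 CPM between these sets, TEK from 2.32 to 11.95 CPM and CDH5 from 0.377 to 1.096 CPM. All 4 endothelial genes tested rose there without overlap, beside 33.6% of all genes called upward. Of 6 keratinocyte genes, which matter for S100A2 and S100A14, A101D held 34.1 to 36.8 CPM (replicates 1 to 4) and 40.0 to 43.3 CPM (replicates 5 to 8), and MeWo held 19.5 to 25.0 CPM, nearly all KRT10. KRT14 went from 0.59 to 1.95 CPM, TP63 from 0.09 to 0.45 CPM and DSG3 from 0.007 to 0.25 CPM between the A101D sets. KRT5 averaged 0.02 and 0.03 CPM there, and KRT1 had no count in A101D. Between the same sets scarce genes of other lists also rose, TYRP1 from 0.39 to 1.43 CPM and COL3A1 from 0.05 to 0.37 CPM, while DCT and COL1A2 fell. Of 6 leukocyte genes A101D held 4.77 to 10.2 CPM and MeWo 0.777 to 1.29 CPM. In A101D this was mostly ITGAM, at 3.01 and 5.72 CPM in the sets, and LYZ, at 2.69 and 3.17 CPM. In MeWo ITGAM averaged 0.07 and 0.06 CPM and LYZ 0.63 and 0.64 CPM. PTPRC stayed below 0.2 CPM in the mean of each set. The part of these markers in the S100 differences was not tested.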

How the data were processed

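Libraries of 16 samples, 8 per line, came from a kit for total RNA that marks strand, per the labels' protocols. For each line the authors deposited a table of read counts, whole numbers that were not normalized. Its cells join an Ensembl identifier to a count, and these were split before use. Trimmomatic 0.39-1, STAR 2.7.1a, featureCounts 2.0.0 and the build GRCh38 are named in the submitters' processing notes, while the annotation release and the counting's strand setting are not given in those notes or in the labels. All 16 columns were matched to samples by line and replicate number in their headers. A symbol was found for 60357 of 60676 identifiers, and 58503 are in GENCODE v29, which gave positions and exon lengths.

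Genes were tested when they reached 0.298 CPM (10 counts at the median depth) in 8 or more libraries and had at least 15 counts in total. Library sizes were scaled by trimmed means of M-values (trims of 30% and 5%), computed on the tested genes, and CPM are on those sizes. Differences were tested with limma 3.58.1 in R 4.3.3 on voom-weighted log2 CPM with robust moderation, two-sided, with Benjamini-Hochberg adjustment over all 19247 genes and a threshold of 0.05. The comparison of the lines over all libraries used 2 groups, and all others used 4 groups (line by replicates 1 to 4 or 5 to 8) with 1 shared spread. Log2 fold changes are MeWo minus A101D or replicates 5 to 8 minus 1 to 4, given with standard errors. The fit was tested on simulated data. Tables and plots were made with Python 3.11.15, pandas 2.3.3 and matplotlib 3.10.9.

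The members, the split by replicate number and the gene lists were chosen with earlier results of these data known. All 10 members are named whatever their values, other S100 genes by level, partners by role, position neighbours by distance, and similar genes by the 1 nearest pattern. Alternatives were other scalings, filters, thresholds and tests, a replicate block, gene lengths of the longest transcript, and leaving out each library. The values of 1 gene of the partner list are not reported here.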

Additional observations from a re-analysis of the deposited data

Results flagged for a closer look

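S100A11 in A101D replicate 3 was 145 CPM, away from the other 3 libraries of replicates 1 to 4. Its gap to the nearest of them was 0.862 of the group's range. This was the only such value among 40 groups of 4 libraries checked, 10 members in 4 sets of libraries, and none was found in 20 groups of 8. Chance gives about 1 in 20.

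The change from replicates 1 to 4 to replicates 5 to 8 differed between the lines for 9 members, by the interaction in limma with Benjamini-Hochberg adjustment. The difference of log2 fold changes (MeWo minus A101D) was 0.40 for S100B and 0.33 for S100A10. It was -0.41 for S100A1, -1.48 for S100A2, -1.16 for S100A3, -0.32 for S100A6, -0.21 for S100A11, -0.17 for S100A13 and -0.59 for S100A16. Over all genes tested, 52.7% were called in the same comparison.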

How the results depend on the processing

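Of 1470 values recomputed under other settings for the members, 1424 kept their direction and their side of the threshold, 22 lost the threshold, 6 gained it and 18 turned sign. A filter in 4 libraries, and leaving out libraries in the line comparison, were added after the data were seen. Of 2 members called between the MeWo sets, median-of-ratios factors and the absence of a low-count filter each left 1, limma-trend gave 4, and leaving out 1 library gave 1 to 2. The genes called there in all numbered 3002, against 1632 at a threshold of 0.01 and 1892 with no filter. All values that turned sign were uncalled: S100A10 between the MeWo sets (0.024 with total counts, -0.045 to 0.0089 without 1 library), S100A4 in the interaction (-0.020 with median-of-ratios factors, -0.030 with upper-quartile factors, -0.037 with total counts, -0.0041 with a filter at 1 CPM, -0.078 to 0.063 without 1 library) and S100A6 between the lines in replicates 1 to 4 (-0.0046 with no filter). S100A6 passed there with upper-quartile factors (adjusted p = 0.041). S100A11 between the lines in replicates 5 to 8 missed the threshold with median-of-ratios factors (adjusted p = 0.0562) and total counts (adjusted p = 0.123). S100A1 and S100A4 passed between the MeWo sets with limma-trend (adjusted p = 0.0056 and 0.00619). The cause was not tested. Gene length by longest transcript moved 15 levels per kb, S100A6 to 2184 CPM per kb in A101D and 1969 in MeWo, and put S100A4 before S100A11 in A101D. Counts of members called between the lines stayed at 9 without any 1 library. Replicate numbers did not pair the lines: same-numbered libraries had deviations correlated by 0.0749 to 0.23, and 1 of 8 matched its own number best (-0.0551 to 0.166 and 3 of 8 with the sets' means removed). The replicate block left 9 members called between the lines and 9 in the interaction, with 15332 and 10152 genes in all, and changed no member's call. The edgeR and DESeq2 tests, planned only for columns that pass a check of units as counts, were not run, since columns that join identifier and count did not pass it, although the split values would allow them. Counts of 10 to 17 limit S100A3 in MeWo.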
